A study of Mus musculus with 4 samples.

Results

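The genes of cholesterol and fatty acid synthesis were followed in mouse bone marrow cultures that differentiated in orbit or on the ground. The members were the 35 genes of a textbook list, namely 17 sterol synthesis enzymes, 6 genes of sterol sensing and transport, and 12 enzymes that build, elongate or desaturate fatty acids. They were matched by gene symbol to every probe set with that symbol alone, which gave 84 probe sets of the 45037 that are not controls, or 35 of 18193 genes. The rule uses symbols and no measured value, but the list was drawn up with earlier results of these data known. The study asked how macrophages form from marrow progenitors during space flight. The space flight group was 2 arrays of cultures lysed on spaceflight day 14, and the ground control group was 2 arrays of parallel cultures held under the same temperature and mixing schedule. All cultures came from marrow of adult C57BL/6 mice older than 8 weeks with no genetic change named, pooled over 21 animals and freed of red cells, and both groups grew for 15 days at 37 °C in macrophage colony-stimulating factor (M-CSF, 1.5 µg/ml), with fresh medium on day 6. Each array held RNA of 2 culture barrels, and the arrays came from the better pools by RNA quality among 4 per group, so the replicates differ by culture and not by animal.

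Animal cells make cholesterol from acetyl-CoA by way of mevalonate, isoprenoids, squalene and a series of changes to the sterol ring. Fatty acids are built from the same acetyl-CoA and are then lengthened and desaturated. Both routes are switched on by the sterol regulatory element-binding proteins (SREBPs), which Scap carries out of the endoplasmic reticulum when sterols are scarce and which the Insig proteins hold back when sterols are plentiful. In macrophages the balance between making, taking up and exporting sterol is linked to membrane growth and to foam cell formation.

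Promoters are shown for 7 of the members for which RefSeq lists 1 start, all named in the results below. Each is the 150 bases before the transcription start, 5' to 3', from RefSeq on build GRCm38.p6. Capitals mark CCAAT, the motif bound by NF-Y, GGGCGG, the motif bound by Sp1, and CACNCCAC, the core of a sterol regulatory element, on either strand. In Fasn 2 of the CCAAT matches overlap each other, and the 3 motifs do not overlap one another in these stretches.
Msmo1, GRCm38.p6 chr8:64733579-64733728, minus strand: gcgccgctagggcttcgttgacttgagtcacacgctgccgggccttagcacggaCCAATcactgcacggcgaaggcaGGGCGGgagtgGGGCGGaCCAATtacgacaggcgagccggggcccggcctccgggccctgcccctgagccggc
Nsdhl, GRCm38.p6 chrX:72918371-72918520, plus strand: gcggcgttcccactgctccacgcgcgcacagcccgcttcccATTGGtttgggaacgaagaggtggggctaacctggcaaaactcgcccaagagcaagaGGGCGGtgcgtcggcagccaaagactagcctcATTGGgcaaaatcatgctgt
Hsd17b7, GRCm38.p6 chr1:169969206-169969355, minus strand: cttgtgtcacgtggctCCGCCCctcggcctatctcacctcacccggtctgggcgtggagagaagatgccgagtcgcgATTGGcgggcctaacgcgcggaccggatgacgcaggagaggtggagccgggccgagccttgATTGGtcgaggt
Cyp51, GRCm38.p6 chr5:4104698-4104847, minus strand: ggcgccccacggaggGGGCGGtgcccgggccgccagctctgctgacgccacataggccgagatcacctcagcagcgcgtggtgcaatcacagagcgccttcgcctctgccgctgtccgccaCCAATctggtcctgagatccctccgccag
Fasn, GRCm38.p6 chr11:120824548-120824697, minus strand: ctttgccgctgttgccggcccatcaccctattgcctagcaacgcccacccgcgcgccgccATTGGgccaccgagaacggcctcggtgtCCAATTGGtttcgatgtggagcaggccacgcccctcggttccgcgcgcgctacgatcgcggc
Hmgcs1, GRCm38.p6 chr13:119690201-119690350, plus strand: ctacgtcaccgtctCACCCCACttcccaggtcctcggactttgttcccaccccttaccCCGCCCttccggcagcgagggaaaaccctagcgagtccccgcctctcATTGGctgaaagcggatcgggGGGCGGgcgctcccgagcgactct
Insig1, GRCm38.p6 chr5:28071262-28071411, plus strand: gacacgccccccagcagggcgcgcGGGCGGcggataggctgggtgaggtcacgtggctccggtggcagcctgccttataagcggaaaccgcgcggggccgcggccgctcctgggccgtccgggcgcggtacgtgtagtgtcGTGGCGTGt
RefSeq's promoter table held 28 of the 35 members, in windows from 250 bases before to 50 bases after each start. It had no entry for Fdps, Fdft1, Sqle, Stard4, Scd1, Scd2 and Fads1. CCAAT was found for 14 of 14 sterol enzymes, 4 of 5 regulators and 6 of 9 fatty acid enzymes in that table, against 41.1% of its 27025 genes, and in 37.4% of its 32851 windows. GGGCGG was found for 13, 5 and 5 of them, against 38.2% of all genes in the table and 35.7% of windows. The sterol regulatory element core was found for Hmgcs1 and Insig1 alone among the members in the table, against 7.12% of all genes in it and 6.24% of windows. These matches describe the letters of the windows and were not tested for binding.

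Of the 35 genes, 32 had a brightest probe set that reached the dim limit of 6.40 log2 units, the median over all probe sets, and are called measured. The other 3 were Scd1, Elovl6 and Fads3, all of the fatty acid branch. For each of the 32 the ground control mean alone also reached the limit, so none was measured only through a high space flight value. Values below are log2(intensity + 16) after quantile normalization, differences are space flight minus ground control, and tests are limma's over all 11141 measured genes. On this scale a difference understates the change of a dim gene. The RNA was degraded, with an integrity number of 3, and control probe sets at the 3' end of Gapdh were brighter than those at its 5' end by 4.09-fold and 15.2-fold in space flight (arrays 1 and 2), against 4.13-fold and 3.33-fold in ground control. The same ratio for Actb was 3.08 and 4.91 in space flight, against 2.30 and 2.84 in ground control. For the transferrin receptor it was 5.50 and 3.47 in space flight, against 4.96 and 7.84 in ground control, so the controls did not rank the arrays alike. Replicates differed with an SD of 0.70 over measured genes in space flight and of 0.47 in ground control.

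No member passed an adjusted p of 0.05 in limma, while 5 of all measured genes (0.0449%) passed as higher and 2 (0.018%) as lower. At an unadjusted p under 0.05, 9 of the 32 members stood lower in space flight, against 7.32% of all measured genes, and 2 stood higher, against 6.88%. For 13 members, or 40.6%, each space flight value was lower than each ground control value, against 22.5% of all measured genes. For 4 members, or 12.5%, each was higher, against 23% of all measured genes. Of the 32 differences 21 were below 0, against 48.8% of all measured genes. The median difference over the 32 was −0.25, beside 0.02 over all measured genes. By space flight array 1 alone that median was −0.51, and by array 2 alone −0.053. The smallest adjusted p of a member was 0.091, for Sqle, which ranked 52 of 11141 genes by p.

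**Figure D1:**
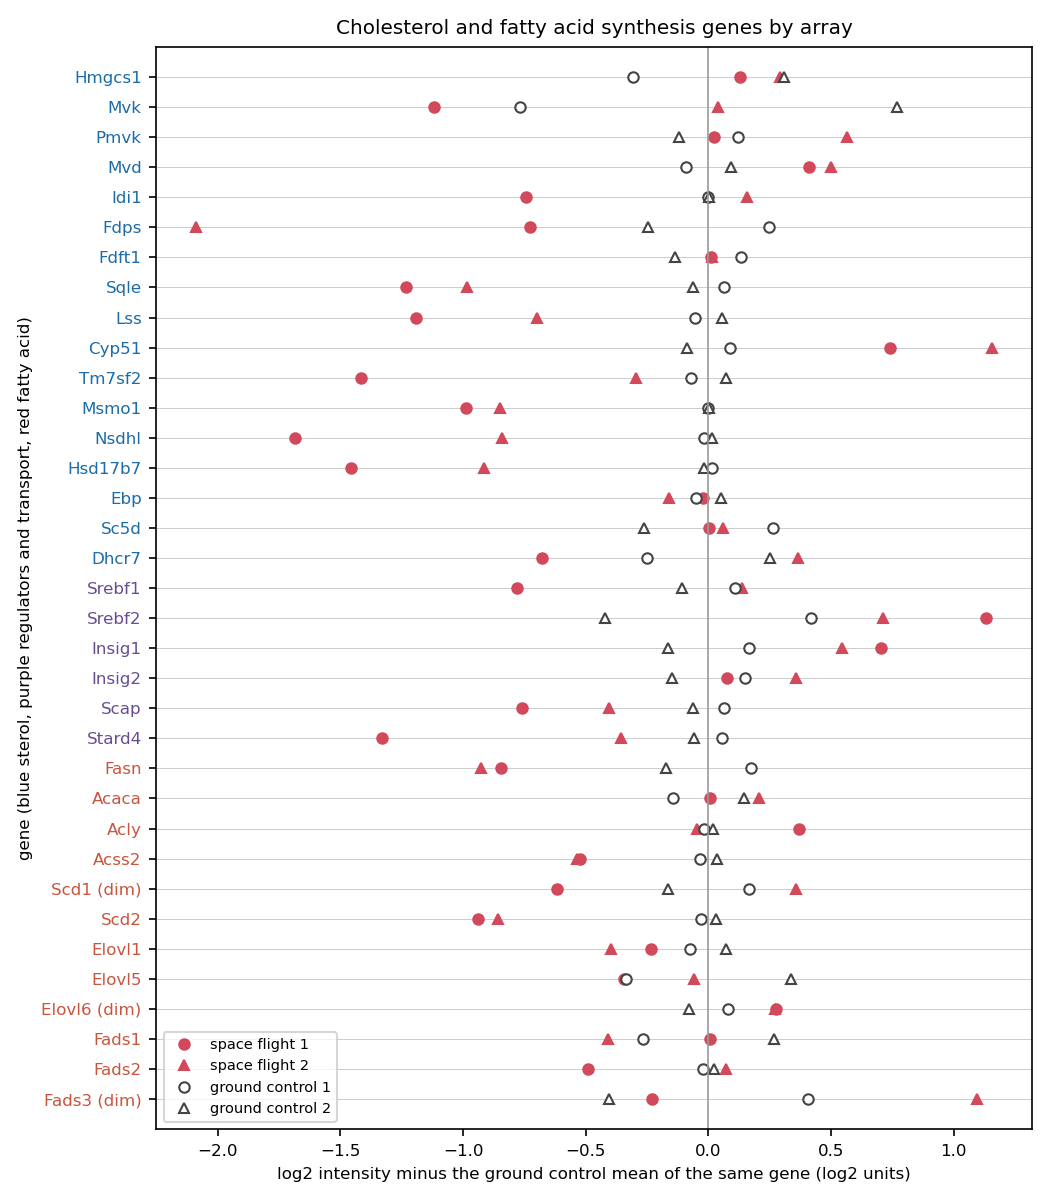
Each point is 1 array's log2 intensity of a gene's brightest probe set minus the ground control mean of that gene, with space flight filled and ground control open. Sqle, Msmo1, Hsd17b7 and Scd2 have both filled points left of both open points, and Cyp51, Srebf2 and Insig1 have both to the right; (dim) marks the 3 genes below the dim limit.

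The sterol branch is given broadly, not strictly, in the order of its reactions, with Fdft1 and Tm7sf2 among those described after later steps. Of 11 measured enzymes from squalene synthase onward, 6 had the space flight arrays below the ground control arrays without overlap and 1 had them above, beside 22.5% and 23% of all measured genes. Their median difference was −0.85, or −0.99 by space flight array 1 alone and −0.29 by array 2 alone. Of 6 enzymes of the mevalonate and isoprenoid steps, 1 was below and 1 above, with a median of −0.04, or −0.35 by space flight array 1 alone and 0.22 by array 2 alone. Left with ground control array 2 or 1 alone, that median was −0.20 or 0.20. This division follows the order of the reactions but was made with the values known, and the difference between the sets was not tested.

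Hmgcs1, which condenses acetyl units at the head of the pathway, had 13.71 and 13.87 on the space flight arrays, against 13.27 and 13.89 on the ground control arrays. The groups overlapped, and its difference was 0.21 ± 0.21 (SE, n = 2 arrays per group; adjusted p = 0.686). Its other probe sets at or above the dim limit gave −0.11, −0.06 and −0.13. Mvd, which makes the first isoprenoid from phosphorylated mevalonate, had 9.23 and 9.32 in space flight, against 8.73 and 8.91 in ground control. Its groups did not overlap, the difference of 0.45 ± 0.31 did not pass (adjusted p = 0.538), and a further probe set gave 0.41. Fdps, which joins isoprenoids into farnesyl diphosphate, had 8.10 and 6.74 in space flight, against 9.08 and 8.58 in ground control. Both space flight values were lower, the second far more so, and the difference was −1.41 ± 0.47 (adjusted p = 0.21). The difference of Fdps was −0.73 by space flight replicate 1 alone and −2.09 by replicate 2 alone, and its second probe set, below the dim limit, gave 0.39. The kinases Mvk and Pmvk and the isomerase Idi1 overlapped between groups, with differences of −0.54, 0.29 and −0.29, and a second probe set of Idi1 gave −0.70 without overlap.

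Sqle, the oxygen-dependent enzyme that makes the epoxide of squalene, had 11.25 and 11.50 in space flight, against 12.54 and 12.42 in ground control. Both space flight arrays lay below both ground control arrays, and the difference was −1.11 ± 0.22 (SE), or 0.464-fold, with an adjusted p of 0.091. Lss, which closes the sterol ring, had 9.40 and 9.89 in space flight, against 10.53 and 10.64 in ground control. Its difference was −0.94 ± 0.29 (adjusted p = 0.187), and 2 further probe sets gave −0.66, with a space flight mean under the dim limit, and −0.94, with overlap. Fdft1, the squalene synthase just before them, overlapped between groups with a difference of 0.01 ± 0.23 (95% interval −0.49 to 0.52).

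The enzymes that strip the methyl groups from the ring did not stand on 1 side. Cyp51, which starts that removal, had 11.19 and 11.60 in space flight, against 10.53 and 10.36 in ground control. Both space flight arrays lay above, and the difference was 0.95 ± 0.27, or 1.93-fold (adjusted p = 0.151). Its 2 other probe sets overlapped between groups and gave −0.26 and 0.49, so its probe sets did not share a direction. Msmo1, Nsdhl and Hsd17b7, which act in turn on the remaining methyl groups, all stood lower. Msmo1 had 11.00 and 11.14 in space flight, against 11.99 and 11.99 in ground control. That is a difference of −0.92 ± 0.23 (adjusted p = 0.124), and its second probe set gave −2.49 ± 0.66. That probe set had 6.12 and 4.43 in space flight, against 7.74 and 7.79 in ground control, so it reached the dim limit only through ground control. Nsdhl had 8.12 and 8.96 in space flight, against 9.79 and 9.82 in ground control. Its difference was −1.26 ± 0.35 (adjusted p = 0.149), with the 2 space flight arrays further apart than the 2 ground control arrays. Hsd17b7 had 8.53 and 9.08 in space flight, against 10.01 and 9.97 in ground control. The difference was −1.18 ± 0.32 (adjusted p = 0.134), on a probe set that, by the maker's naming, may cross-hybridise. Its other probe sets that reached the dim limit gave −0.70 and −0.10.

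Tm7sf2, a sterol reductase, had 7.56 and 8.68 in space flight, against 8.90 and 9.05 in ground control, a difference of −0.85 ± 0.41 (adjusted p = 0.376). Left with 1 space flight array, it had −1.41 by replicate 1 and −0.29 by replicate 2. The last enzymes of the route, Ebp, Sc5d and Dhcr7, overlapped between groups, with differences of −0.09, 0.03 and −0.16 and adjusted p of 0.892 to 0.973. A second probe set of Sc5d gave −0.79 with groups that did not overlap.

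**Figure D2:**
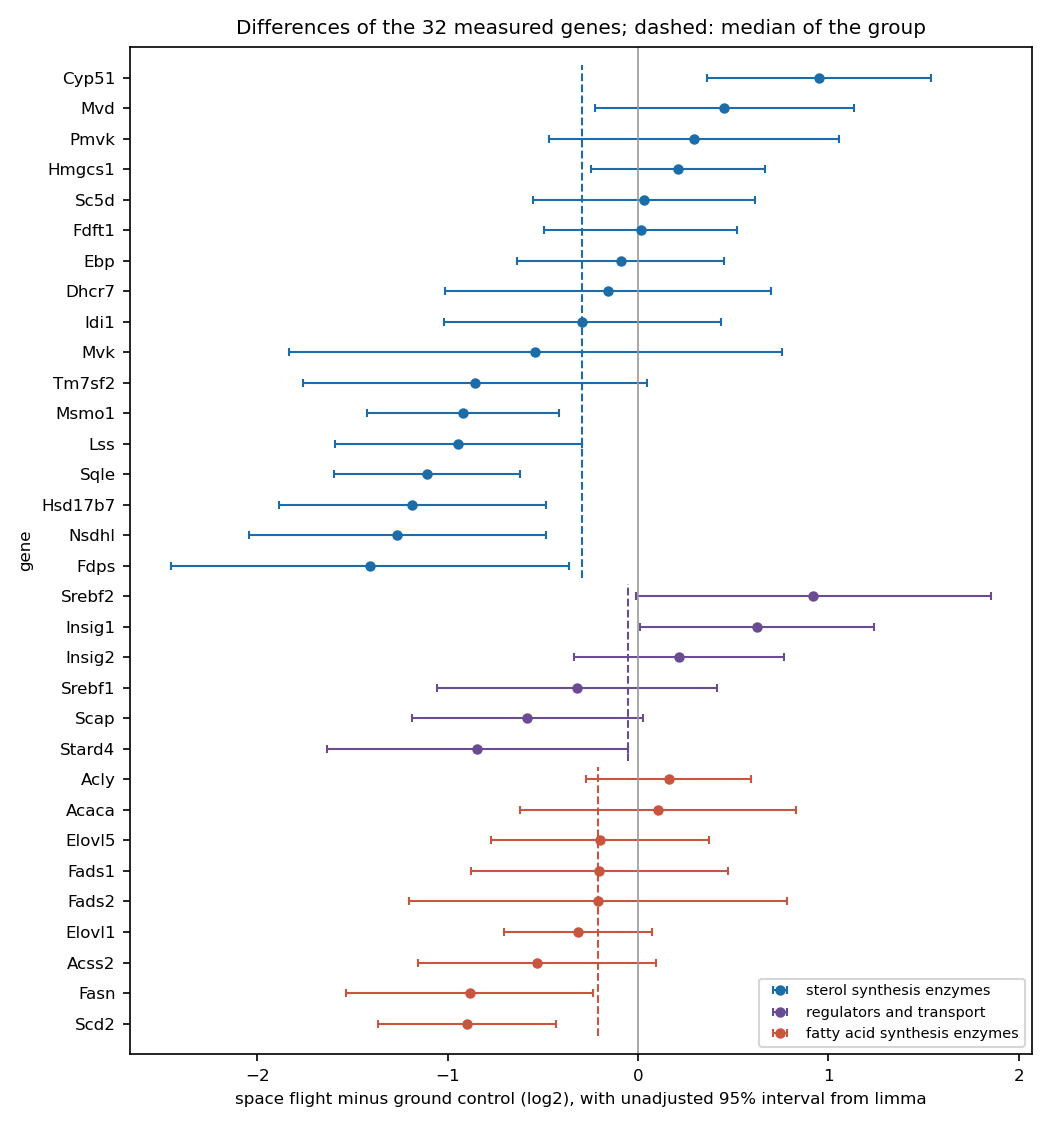
Points are log2 differences (space flight minus ground control) of the 32 measured genes, bars are unadjusted 95% intervals from limma, and dashed lines are group medians of −0.29, −0.05 and −0.21 for sterol enzymes, regulators and transport, and fatty acid enzymes. Fdps, Nsdhl, Hsd17b7, Sqle, Lss and Msmo1 form the low end of the sterol enzymes and Cyp51 the high end; Scd2 and Fasn are lowest among fatty acid enzymes.

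Among the regulators, Srebf2 and Insig1 stood higher and Scap and Stard4 lower, and none passed. Srebf2, which encodes the SREBP that mainly drives sterol genes, had 8.53 and 8.11 in space flight, against 7.82 and 6.98 in ground control. The difference was 0.92 ± 0.42 (adjusted p = 0.356), and its second probe set gave 0.43 with groups that did not overlap. It stood at 0.50 without ground control replicate 2 and at 1.34 without ground control replicate 1. Insig1, both a brake on SREBP transport and an SREBP target itself, had 10.75 and 10.59 in space flight, against 10.21 and 9.88 in ground control. Its difference was 0.62 ± 0.28 (adjusted p = 0.34). Srebf1, which encodes the SREBPs tied more to fatty acid genes, had 9.89 and 10.81 in space flight, against 10.78 and 10.56 in ground control. The space flight arrays lay on either side of the ground control values, and the difference was −0.32 ± 0.33 (95% interval −1.06 to 0.42).

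Scap, the SREBP escort, had 10.01 and 10.37 in space flight, against 10.84 and 10.71 in ground control, a difference of −0.58 ± 0.27 (adjusted p = 0.371). Stard4, which moves sterol between membranes and is an SREBP target, had 8.71 and 9.68 in space flight, against 10.10 and 9.98 in ground control. The difference was −0.84 ± 0.36 (adjusted p = 0.32), or −0.36 when space flight replicate 1 was left out, and its other probe sets gave −0.99 and −0.20. Insig2 overlapped between groups at 0.21 ± 0.25, with probe sets at 0.03 and −0.58 besides.

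In the fatty acid branch no measured enzyme had both space flight values above the ground control values, while 4 of 9 had both below. Among all measured genes these shares were 23% and 22.5%. Fasn, the multifunctional synthase that makes palmitate, had 9.35 and 9.26 in space flight, against 10.36 and 10.02 in ground control. Both space flight arrays lay below, with a difference of −0.88 ± 0.29, or 0.542-fold (adjusted p = 0.205). Acss2, which makes acetyl-CoA from acetate, had 9.51 and 9.49 in space flight, against 9.99 and 10.06 in ground control. Its difference was −0.53 ± 0.28 (adjusted p = 0.432), and a second probe set at −0.60 did not overlap between groups either. Acaca, which makes malonyl-CoA in the committed step, had 8.63 and 8.83 in space flight, against 8.48 and 8.77 in ground control. Those groups overlapped at 0.11 ± 0.33 (95% interval −0.62 to 0.83). Acly, which makes acetyl-CoA from citrate, overlapped as well at 0.16 ± 0.20, with 0.05 and 0.45 on its other probe sets that reached the limit.

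Of the desaturases, Scd2 had 11.48 and 11.56 in space flight, against 12.38 and 12.45 in ground control. The replicates lay close together in each group, and the difference was −0.90 ± 0.21, or 0.537-fold (adjusted p = 0.115). Its 2 other probe sets, one of them below the dim limit, gave 0.03 and 0.13 with overlapping groups, so the direction of Scd2 rests on the brightest probe set. Scd1, like Scd2 a stearoyl-CoA desaturase, had 5.34 and 6.32 in space flight, against 6.13 and 5.80 in ground control, all below the dim limit, and was not tested. Fads1 and Fads2, which desaturate polyunsaturated fatty acids, overlapped between groups at −0.20 and −0.21. Their second probe sets gave −0.42, without overlap, for Fads1 and −0.43, with overlap, for Fads2. Elovl1, which lengthens very long saturated chains, had 13.11 and 12.94 in space flight, against 13.27 and 13.41 in ground control. On all 4 of its probe sets the space flight arrays lay below the ground control arrays without overlap, with differences of −0.32 ± 0.17 on the brightest (adjusted p = 0.446) and of −0.78, −0.17 and −0.35 on the others. By the maker's naming, all of these but the probe set at −0.78 may cross-hybridise. Elovl5, which acts on polyunsaturated chains, overlapped at −0.20, with a second probe set at −0.34 that did not overlap. The dim Elovl6 had differences of 0.27, −2.45 and −0.10 on its 3 probe sets, and the dim Fads3 of 0.43, 0.05 and −0.04, none of which was tested.

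**Figure D3:**
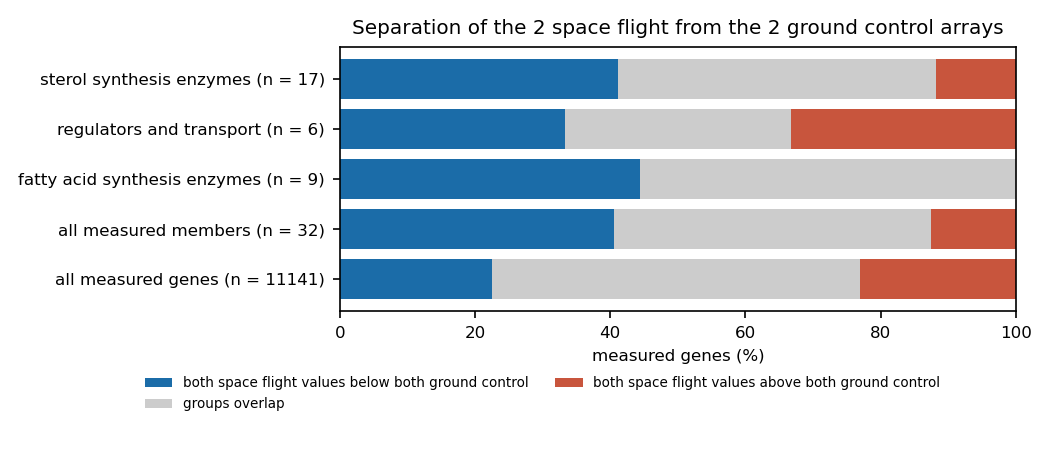
Bars give the percent of measured genes whose 2 space flight values both lay below (blue), overlapped with (grey) or both lay above (red) the 2 ground control values. The blue share is 41.2%, 33.3% and 44.4% for sterol enzymes, regulators and transport, and fatty acid enzymes, beside 22.5% of all 11141 measured genes. The red share is 11.8%, 33.3% and 0% in the same order, beside 23% of all measured genes.

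Set side by side, the branches had median differences of −0.29 over 17 sterol enzymes and −0.21 over 9 measured fatty acid enzymes. The sterol median minus the fatty acid median was −0.08, against an SD between replicates of 0.40 for that quantity. Relative to the ground control mean of each gene, the sterol median was −0.73 for the first space flight array and 0.015 for the second, and the fatty acid median was −0.34 and −0.40. For the 6 regulators and transport genes it was −0.34 and 0.25. The sterol branch thus lay below the fatty acid branch on array 1 and above it on array 2. Space flight array 2 had the highest of the 4 ratios of 3' to 5' signal for Gapdh and Actb and the lowest for the transferrin receptor, and the part of RNA quality in the result was not tested. On array 1, 10 of 17 sterol enzymes were below both ground control values and 2 above, and on array 2, 8 were below and 5 above. For the fatty acid enzymes these counts were 6 and 1 of 9 on array 1 and 6 and 2 on array 2. Among all measured genes, 38.3% were below both on array 1 and 38.4% on array 2. Array 1 gave the lower value of the 2 space flight arrays for 15 of 17 sterol enzymes and 4 of 9 fatty acid enzymes, and for 5783 of 11141 genes. In counts added after seeing the data, 19 of the 32 members lay below both ground control values and 5 above when space flight replicate 2 was left out. These counts were 16 and 11 when space flight replicate 1 was left out, 18 and 8 when ground control replicate 1 was, and 15 and 6 when ground control replicate 2 was. The share of all measured genes below was then 38.3%, 38.4%, 33.0% and 32.5%, and the share above 38.5%, 41.3%, 33.5% and 35.2%. With an unadjusted p under 0.05, 13 members were lower and 3 higher when space flight replicate 2 was left out, against 10.4% and 9.84% of all measured genes. Leaving out space flight replicate 1 gave 8 and 1, against 12.9% and 12.1%. The counts were 6 and 2, against 3.04% and 3.63%, for ground control replicate 1, and 7 and 2, against 3.64% and 4.28%, for ground control replicate 2.

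Over probe sets rather than genes, 61 of the 84 reached the dim limit. Space flight was below ground control on every pair of arrays for 26 of them, or 42.6%, against 22.5% of the 22519 probe sets at or above the limit. It was above for 6, or 9.84%, against 20.7%. In a limma fit over these 22519 probe sets, 0 of the 61 passed an adjusted p of 0.05 (smallest 0.138), beside 0.0488% of all probe sets in that fit. Before adjustment 12 had a p under 0.05 and were lower, against 6.58% of all, and 1 was higher, against 5.43%. Probe sets of 1 gene share its RNA and are not independent. Of the 84, 14 may cross-hybridise by the maker's naming. They include the brightest probe sets of 7 genes, namely Mvd, Fdft1, Lss, Hsd17b7, Acly, Elovl1 and Elovl5. Of 19 genes with several probe sets at or above the limit, 13 had 1 sign throughout and 6 did not, namely Hmgcs1, Fdft1, Cyp51, Sc5d, Insig2 and Scd2.

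**Figure D4:**
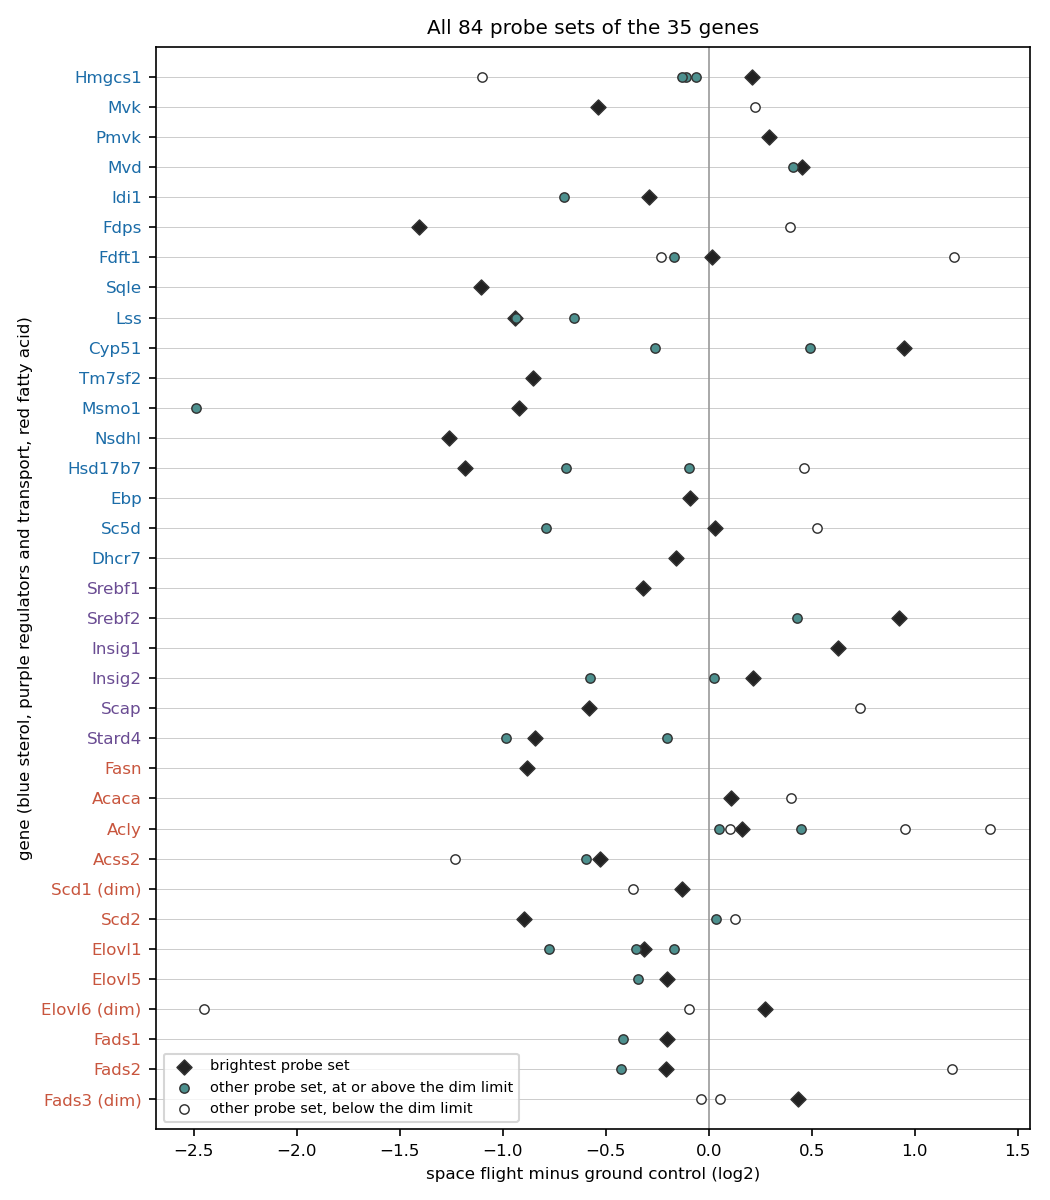
Each symbol is the log2 difference (space flight minus ground control) of 1 of the 84 probe sets, with diamonds for the brightest of each gene, filled circles for others at or above the dim limit and open circles for others below it. Lss, Msmo1, Hsd17b7, Stard4, Acss2 and Elovl1 have all symbols at or above the limit left of 0, while Cyp51 and Scd2 have symbols on both sides.

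Of the other genes of these pathways, 0 passed limma's test, beside 0.0449% of all measured genes as higher and 0.018% as lower. For the counts that follow, 48.8% of all measured genes had a difference below 0. At an unadjusted p under 0.05 in limma, 7.32% of all measured genes were lower and 6.88% higher. In a list of further sterol genes 8 were measured, 6 with a difference below 0 and 2 lower at an unadjusted p under 0.05, with a median of −0.15. Npc1, which exports cholesterol from lysosomes, had 10.79 and 11.19 in space flight, against 12.23 and 12.31 in ground control, a difference of −1.28 ± 0.24 (adjusted p = 0.085). Mbtps1, the first protease that releases the SREBPs, had 9.69 and 10.18 in space flight, against 10.69 and 10.57 in ground control, a difference of −0.70 ± 0.29 (adjusted p = 0.31). In a list of further fatty acid genes 16 were measured, 7 of them above 0 and 9 below, with a median of −0.12, with 4 higher and 2 lower at an unadjusted p under 0.05. Elovl7, an elongase of long chains, stood at 1.61 ± 0.49 (adjusted p = 0.179) with a ground control mean under the dim limit, and Hacd4, of the family of dehydratases in chain elongation, stood at −0.90 ± 0.33 (adjusted p = 0.246). Hacd4 had 10.55 and 11.63 in space flight, against 11.99 and 11.99 in ground control, so most of its distance lay on array 1. Of 6 measured genes of sterol sensing by LXR, the nuclear receptor that answers to excess sterol, and of sterol export, 6 were below 0, with a median of −0.48. They included Lpcat3, an LXR target that remodels phospholipids, at −0.85 ± 0.28 (adjusted p = 0.21), and Abca1, the cholesterol exporter, at −0.96 ± 0.53 (adjusted p = 0.447). Abca1 had 7.74 and 6.41 in space flight, against 8.53 and 7.55 in ground control, with overlap.

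Neutrophil and erythroid markers were summed beside those of macrophages, and in bulk RNA fewer cells of a type and less RNA per cell cannot be told apart. Each sum is over the brightest probe sets of all listed markers that had one, dim ones included, and none was listed at 0. The sums are of deposited values, before quantile normalization. Over all 18193 genes such a sum was 23256400 and 26906900 in space flight, against 23268700 and 24076600 in ground control, so it was highest on space flight array 2. Of 14 neutrophil markers 13 were measured, and 12 of these stood higher in space flight, against 51.2% of all measured genes. Camp and Ngp were past the test. Mmp8 stood lower, with 12.89 and 12.36 in space flight, against 13.40 and 13.13 in ground control. Csf3r, among the 12, was at 0.05 with overlap. Summed deposited intensities of the neutrophil markers were 80339 and 146005 in space flight, against 46763 and 51949 in ground control. Of 13 erythroid markers 10 were measured and 7 stood higher, with sums of 7061 and 13783 in space flight, against 1885 and 3858 in ground control. Of these 7, Ermap had a ground control mean under the dim limit. Slc4a1 was the brightest and weighs most in the sums, with 12.42 and 13.39 in space flight, against 10.05 and 11.43 in ground control. Its probe set may cross-hybridise by the maker's naming. Gata1, Epor and Sptb stood lower, at −0.42, −0.34 and −0.75. Macrophage markers summed to 93908 and 137792 in space flight, against 110976 and 119645 in ground control. Of the 14 macrophage markers 10 were measured, with a median difference of −0.21 after normalization, or −0.29 by space flight array 1 alone and −0.25 by array 2 alone. Of these 10, 6 stood lower, among them Cd68 at −0.43, Csf1r, the M-CSF receptor, at −0.37 and Mrc1 at −1.47. The 4 others were C1qb at 1.42, Fcgr1 at 1.02, Mertk at 0.33 and Msr1 at 0.00072, so the list had no single direction. The ground control mean of Fcgr1 was under the dim limit, so Fcgr1 was measured only through space flight. The part of these shifts in cell markers in the values of the lipid synthesis genes was not tested. Fat and stromal cell markers summed to 990 and 1355 in space flight, against 1122 and 1325 in ground control, with the means of Adipoq and Cidec below the dim limit. Of 12 lymphocyte markers 3 were measured, with a median difference of 0.84 and sums of 555 and 1080 in space flight, against 491 and 585 in ground control. Of 8 mast cell and basophil markers 3 were measured, with a median of −0.08 and sums of 858 and 1235 in space flight, against 819 and 687 in ground control.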

How the data were processed

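The deposited values are intensities on a linear scale, 1 per probe set and array of an Affymetrix mouse array, from GCOS per the submitters' processing notes, with version and summarising method not given in the sources used here. These deposited intensity values share a trimmed mean of 500.004 (2% left out at either end) on all 4 arrays, so 1 scaling factor per array had been applied. From them log2(value + 16) was computed and, because array medians differed by up to 0.385, quantile normalized in R 4.3.3 with limma 3.58.1, without the 64 control probe sets. Each gene was represented by its brightest probe set with a single symbol in the platform annotation (34945 probe sets, 18193 genes), and 11141 genes reached the dim limit. Space flight was compared with ground control by two-sided limma tests (lmFit, then eBayes with trend) and Benjamini-Hochberg adjustment over all measured genes and a threshold of 0.05. The fit leaves 2 residual degrees of freedom, raised to 10.4 by moderation. A second fit used all 22519 probe sets at or above the limit. The smallest two-sided p of an exact permutation test on these arrays is 0.333, and the number of arrays limits the precision. The p-values measure spread between cultures from 1 pool of marrow.

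The members, lists and tests were chosen with earlier results of these data known. All 35 members are accounted for. Values on every array are given for 11 members set by role, and for every further measured member whose groups did not overlap. In each of the lists of other pathway genes the 2 with the largest absolute moderated statistic are named. The procedure was tested on simulated data. Alternatives were other scalings, pseudocounts of 1 and 64, other filters and probe set choices, no trend, a replicate block and each array left out. No label says that a replicate number marks a shared batch, and the numbers were not taken as pairs.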

Additional observations from a re-analysis of the deposited data

How the results depend on the processing

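No sterol or fatty acid enzyme, and none of Srebf1, Srebf2, Insig1, Scap and Stard4, was called under another scaling, pseudocount, filter, probe set choice or without the trend (Insig2 was not run), and the causes of the moves below were not tested. Calls over all genes, 5 higher and 2 lower, came to 12 and 4 with values as deposited. They were 0 and 0 with each array shifted to 1 median and 16 and 5 with cyclic loess. A pseudocount of 64 gave 6 lower. Without a filter they were 0 and 0, and with a filter at the 60th percentile 18 and 10. They were 0 and 0 with the mean of a gene's probe sets, and 0 and 0 without the trend. Setting aside the classes that may cross-hybridise, wherever a gene had another probe set, gave 17 and 9. The fatty acid median of −0.21 became −0.26 as deposited, −0.46 with the median shift (which moves the median of all genes to −0.16), −0.27 with the mean of probe sets and −0.34 without those classes. The sterol median of −0.29 became −0.54 with the median shift, and the sterol minus fatty acid median of −0.08 became 0.074 with the mean of probe sets and 0.051 without those classes. Acaca turned to −0.11 with the median shift, and Scap to 0.075 and Hmgcs1 to −0.24 with the mean of probe sets. With the replicate block 220 genes were called higher and 213 lower, among them 1 sterol enzyme higher (Cyp51), 5 sterol enzymes lower (Sqle, Fdps, Nsdhl, Hsd17b7 and Msmo1) and 1 fatty acid enzyme lower (Scd2), but same-numbered arrays share only a number (correlation of their deviations 0.06). Leaving out 1 array at a time gave 6 to 470 genes called higher and 1 to 610 lower, 0 to 1 sterol enzymes higher and 0 to 6 lower, and 0 to 1 fatty acid enzymes lower. A lone array is there assumed to vary like the others. Without space flight replicate 1, 17 of the 32 members were below 0, against 48.1% of all measured genes. Sqle, Scd2, Fdps and Msmo1 were then at −0.98, −0.86, −2.09 and −0.85, and Cyp51 at 1.16. Without space flight replicate 2, 20 of the 32 were below 0, against 49.2%. Sqle, Scd2, Nsdhl and Hsd17b7 were then at −1.23, −0.94, −1.68 and −1.46. Lss, Msmo1, Tm7sf2 and Stard4 were at −1.19, −0.99, −1.41 and −1.33, and Cyp51 at 0.74. Whether the calls among members exceeded the rise in calls over all genes was not tested. The sterol median ranged from −0.73 to 0.015, the fatty acid median from −0.47 to −0.19 and the sterol minus fatty acid median from −0.39 to 0.41. Srebf1 ranged from −0.78 to 0.14 (above 0 without space flight replicate 1), Hmgcs1 from −0.10 to 0.52 and Acaca from −0.037 to 0.25 (both below 0 without ground control replicate 1). Counts of members below 0, without overlap, or at an unadjusted p, under these settings were added after seeing the data. A signal near the dim limit limits what can be said of Scd1, Elovl6 and Fads3.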
